A study of Rattus norvegicus with 6 samples.

Results

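The steroid hormone receptors Pgr, Esr1, Nr3c1 and Nr3c2 and the orphan repressor Nr0b1 were examined in primary rat chondrocytes. They were chosen by name, as genes whose symbol in the files equals one of these 5, and all 5 were found, each under 1 identifier, among 18923 genes. The control group (CON, 3 samples) was grown for 24 h in high-glucose DMEM with 10% fetal bovine serum and 1% penicillin-streptomycin. The RA group (3 samples) had 1 μM all-trans retinoic acid (RA) added to that medium for the same time. The wild-type cells of both groups came from the cartilage of newborn female Sprague-Dawley rats, freed with type II collagenase and used at passage 1 or 2, so they are monolayer cultures of a juvenile tissue. The labels name no vehicle in the control medium. The study's methods call the 3 samples of each group independent, without saying whether each came from its own animal, and p-values measure the spread between these samples.

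Steroid receptors are transcription factors that wait in a chaperone complex, bind a steroid that has entered the cell, pair up and attach to DNA. Nr3c1 encodes the glucocorticoid receptor, Nr3c2 the mineralocorticoid receptor, which also binds glucocorticoids, Pgr the progesterone receptor and Esr1 the estrogen receptor alpha. Nr0b1 (DAX-1) has no classical DNA-binding domain and no known ligand, and is best known as a repressor of the steroidogenic factor Nr5a1 in the adrenal gland and gonads. Chondrocytes of the growth plate are known targets of glucocorticoids and estrogen.

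Poly(A) RNA was sequenced, with 30170909 to 38007486 reads counted on genes in the CON samples and 29370025 to 30952882 in the RA samples. Of 6 genes fixed as a check of the retinoid response, 5 were DEGs higher in RA, beside 2.67% of all genes tested, among them Cyp26a1, the RA-degrading enzyme, with a log2 fold change of 3.35. The call of Rarb, an RA receptor gene, at 1.43 (edgeR, adjusted p = 0.0493) held in 1 of 6 fits leaving out 1 sample, that without CON sample 1 (1.85), and the others gave 1.12 to 1.54, so those 5 fits called 4 of the 6 genes. CON sample 1 stood apart from the other control samples, with a chi-square per degree of freedom over all tested genes of 39.4 and 63.5 against them, compared with 8.13 between the other two and 6.40 to 8.09 among the RA samples. All 8 chondrocyte markers were expressed, and 7 of them were called lower in RA, beside 2.29% of all genes tested. The count was 6 without CON sample 1 (Col11a1 at -0.56), CON sample 3 (Comp at -0.56) or RA sample 1 (Comp at -0.57). Their summed level was 7763 to 9673 FPKM in CON and 4940 to 5263 in RA. The summed level of 5 fibroblast and synovium markers was 3711 to 4905 FPKM in CON and 4805 to 5060 in RA, and 0 of the 5 were DEGs, with Pdgfra higher by 0.44 on the log2 scale (edgeR, adjusted p = 0.00155) and short of the fold threshold. Of the 5 macrophage markers, 3 were tested and 0 were DEGs, with log2 fold changes of 0.23 to 0.91. They summed to 13.2 to 14.6 FPKM in CON and 16.1 to 17.3 in RA. Cd14 was at 12.9 FPKM in CON and 15.3 in RA, while the mean of Ptprc was at most 0.0152 FPKM and that of Adgre1 at most 0.00347 FPKM in either group. The endothelial markers summed to at most 0.214 FPKM in any sample. The skeletal muscle markers summed to 4.69 to 6.00 FPKM in CON and 6.96 to 7.74 in RA, with Myod1 called higher by 1.93 on the log2 scale (a call that held in 3 of 6 fits leaving out 1 sample), and the osteoblast markers to 8.20 to 9.47 FPKM in CON and 8.19 to 8.45 in RA. Of the 3 osteoblast markers tested, Ibsp was called higher at 1.47, while the most abundant, Alpl, was at -0.42 (edgeR, adjusted p = 0.0219) and Sp7 at 0.23, neither being a DEG. In the fits without CON sample 1 or RA sample 2, 4 osteoblast markers were tested and 2 were called higher. Their part in the results below was not tested. In such bulk samples, fewer cells of a type and less RNA per cell cannot be told apart.

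Pgr and Nr0b1 were the members whose CON and RA samples did not overlap, Pgr being higher and Nr0b1 lower in RA, so the 250 bases upstream of their annotated starts are shown. They are taken from RefSeq on the rat assembly GRCr8, which is a later build than the Rnor_6.0 of the files. Capitals mark a TATAAA and, in Nr0b1, an AGGTCA, the core letters read by receptors such as those for RA.
Pgr, chr8:14354148-14354397, plus strand: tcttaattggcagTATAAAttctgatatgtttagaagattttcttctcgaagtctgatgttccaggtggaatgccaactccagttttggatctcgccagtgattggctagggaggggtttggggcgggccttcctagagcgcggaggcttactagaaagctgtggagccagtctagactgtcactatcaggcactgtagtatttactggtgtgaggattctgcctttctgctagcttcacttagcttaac
Nr0b1, chrX:54707408-54707657, plus strand: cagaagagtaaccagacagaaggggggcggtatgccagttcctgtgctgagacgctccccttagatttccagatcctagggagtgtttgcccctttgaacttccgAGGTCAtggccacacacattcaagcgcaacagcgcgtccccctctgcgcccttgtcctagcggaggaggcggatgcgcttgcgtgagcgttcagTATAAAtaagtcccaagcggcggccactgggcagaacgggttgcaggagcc

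Promoter windows were matched for 4 of the 5 members by symbol (Nr3c2 had no entry), and searched on both strands for 3 motifs. The first was AGGTCA. The second was AGAACA, the core letters read by glucocorticoid-type receptors. The third, TATAAA, is the classical core promoter motif. The first motif, AGGTCA, began 145 bases upstream of the start of Nr0b1 and was in 14.1% of all 33469 windows of this length. TATAAA began 51 bases upstream of Nr0b1 and 237 bases upstream of Pgr, and was in 12.9% of all windows. AGAACA, present in 17.5% of all windows, was in none of the members' windows, and the windows of Esr1 and Nr3c1 held none of the 3 motifs. These matches describe letters only.

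Levels are compared between genes in FPKM, which divides each count by gene length and by the reads counted in that sample. Nr3c1 was the most abundant member in every sample and Esr1 the least abundant. In CON, Nr3c1 was at 19.1 ± 2.84, Nr3c2 at 2.34 ± 0.374, Pgr at 1.79 ± 0.321, Nr0b1 at 0.926 ± 0.393 and Esr1 at 0.036 ± 0.021 FPKM (SD, n = 3 each). In RA, Pgr at 3.37 ± 0.391 stood above Nr3c2 at 2.35 ± 0.0956, followed by Nr0b1 at 0.374 ± 0.081 and Esr1 at 0.0518 ± 0.0117, with Nr3c1 at 17 ± 1.13 FPKM (SD, n = 3 each). Pgr and Nr3c2 therefore changed places in the order. In CON the highest Pgr value, 1.97 FPKM, lay just under the lowest Nr3c2 value, 1.99 FPKM, and the ratio of Nr3c2 to Pgr within a sample was 1.01 to 1.93. In RA that ratio was 0.616 to 0.837, below 1 in all 3 samples. The lengths behind these levels are 5078 bases for Nr3c1, 2631 for Nr3c2, 3058 for Pgr, 1780 for Nr0b1 and 6207 for Esr1, and a length that leaves out part of a transcript would shift that gene's level in all samples alike.

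**Figure D1:**
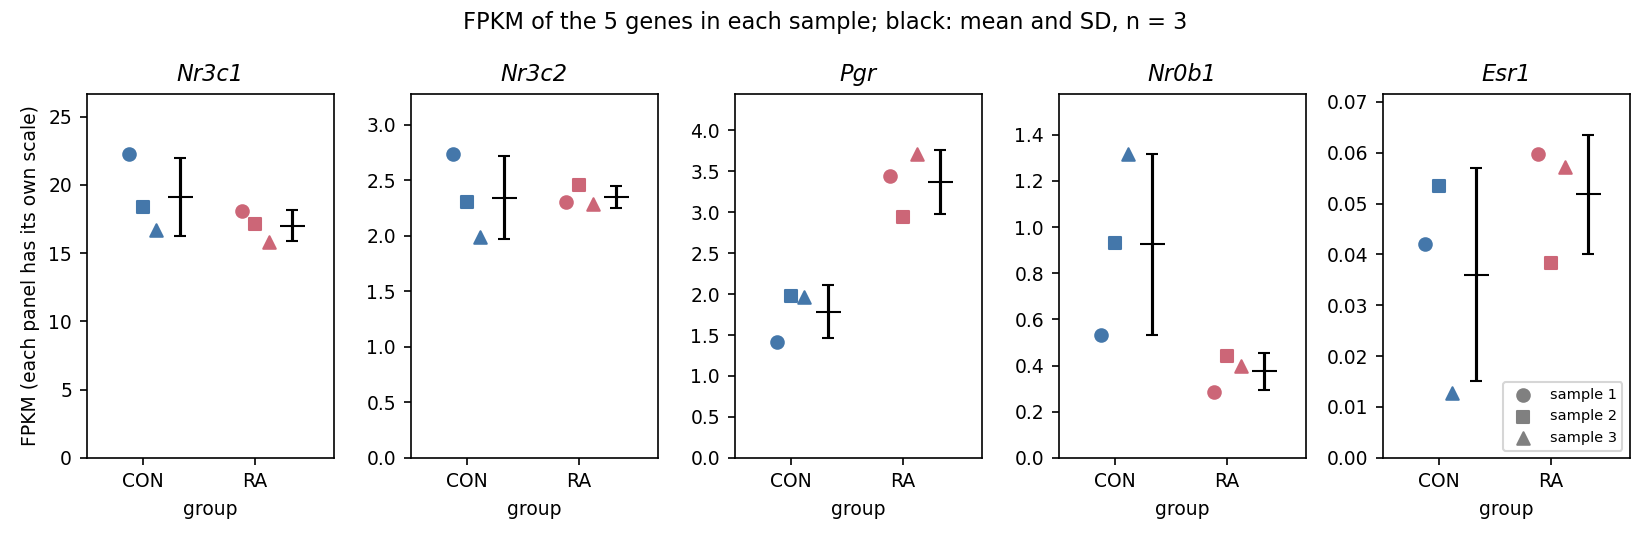
FPKM of each gene in the 3 CON (blue) and 3 RA (red) samples, with the mean and SD in black; each panel has its own vertical axis from 0. The RA samples of Pgr (2.94 to 3.71) lie above all CON samples (1.42 to 1.97), those of Nr0b1 (0.284 to 0.44) lie below all CON samples (0.531 to 1.32), and the other genes overlap.

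Differential expression was tested with edgeR's quasi-likelihood test on the counts of the 13438 genes that passed its filter on low counts, and a gene was a DEG where its p, adjusted by Benjamini-Hochberg over these genes, was under 0.05 and its log2 fold change exceeded 0.58 in size. All 5 members passed the filter, and 1 of them, Pgr, was a DEG, where 4.96% of all genes tested were DEGs and 2.67% were DEGs higher in RA (9.82% passed on the adjusted p alone, again with Pgr as the 1 member). On an unadjusted p under 0.05, 24% of all genes tested passed, and so did Pgr and Nr0b1. The groups did not overlap in normalized counts for 2 of the 5 members, where this held for 31.9% of all genes tested. The median log2 fold change over all genes tested was -0.0057.

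The progesterone receptor Pgr (ENSRNOG00000006831) rose in RA. Its reads numbered 133, 182 and 229 in CON samples 1, 2 and 3, and 313, 264 and 351 in RA samples 1, 2 and 3, which is 1.42, 1.97 and 1.97 FPKM in CON and 3.45, 2.94 and 3.71 FPKM in RA. Every RA sample was above every CON sample, and CON sample 1 was the lowest. The log2 fold change was 0.90 (standard error 0.165, 95% interval 0.52 to 1.28, adjusted p = 0.0109 from edgeR), a 1.86-fold higher level with an interval of 1.43 to 2.42. Pgr moved from between the 19.4 and 23.2 percentile of tested genes by FPKM in CON to between the 28.7 and 32.4 percentile in RA, so it remained in the lower part of the expressed range. Without RA sample 1 the log2 fold change was 0.89 (edgeR adjusted p = 0.0537) and without RA sample 3 it was 0.82 (edgeR adjusted p = 0.0582), both short of the threshold, within a range over all alternatives of 1.48e-05 to 0.0582. Without CON sample 1 it was 0.75 and Pgr remained a DEG.

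Nr0b1 (ENSRNOG00000003765), the repressor, had lower values in RA that did not pass the test. Its reads numbered 29, 50 and 89 in the CON samples and 15, 23 and 22 in the RA samples, or 0.531, 0.931 and 1.32 FPKM in CON and 0.284, 0.44 and 0.399 FPKM in RA. The CON samples were spread more widely than counting alone gives. The exact Poisson 95% interval was 0.632 to 1.36 CPM (counts scaled to the library total) in CON sample 1 and 1.88 to 2.88 CPM in CON sample 3, and these intervals do not overlap. The interval of each RA sample, such as 0.496 to 1.18 CPM in RA sample 2, overlapped with that of CON sample 1. The log2 fold change of Nr0b1 was -1.32 (standard error 0.377, 95% interval -2.19 to -0.46, adjusted p = 0.0653 from edgeR), where 2.29% of all genes tested were DEGs lower in RA. Without CON sample 1 it was a DEG at -1.60 (edgeR adjusted p = 0.00387), and with DESeq2 at -1.33 (adjusted p = 0.0211). With the sample number as a block it was also a DEG, at -1.27 (edgeR adjusted p = 0.0333). Without CON sample 3 the log2 fold change was -0.96 (edgeR adjusted p = 0.151). The adjusted p over all alternatives ranged from 0.00387 to 0.207. The ratio of Pgr to Nr0b1 in FPKM was 1.50 to 2.67 in the CON samples and 6.68 to 12.1 in the RA samples. These ranges had to separate, since neither gene overlapped between the groups and the 2 moved in opposite directions.

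**Figure D2:**
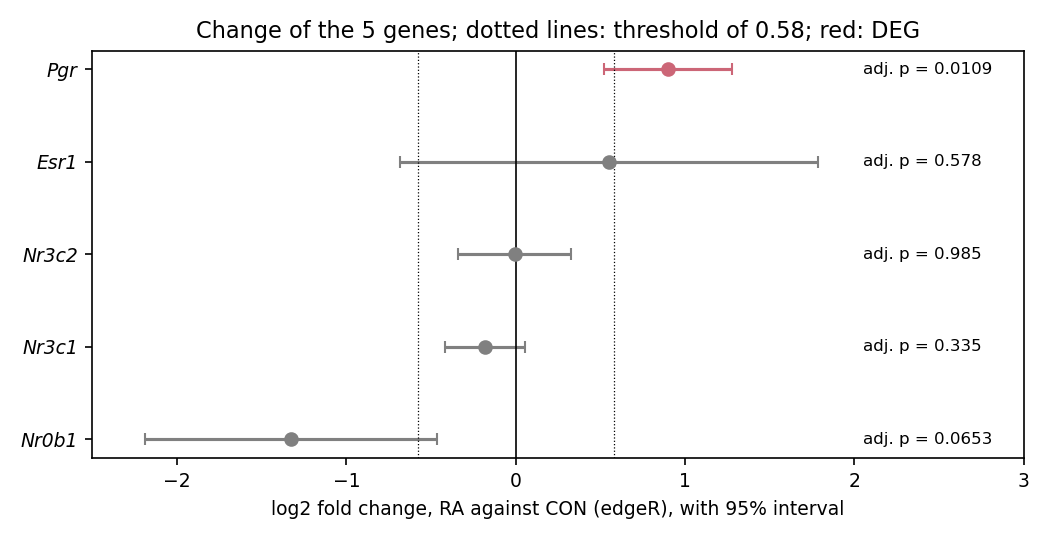
Log2 fold change of each gene in RA against CON (points) with its 95% interval from the edgeR fit (bars), not adjusted for the number of genes; dotted lines mark 0.58 in either direction and red marks the DEG. Pgr at 0.90 is the DEG, Nr0b1 at -1.32 has an interval from -2.19 to -0.46 with an adjusted p of 0.0653, and the intervals of the other genes include 0.

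The glucocorticoid receptor Nr3c1 (ENSRNOG00000014096) was abundant, with 2487 to 3470 reads a sample, and lay at the 65.9 to 74.5 percentile of tested genes by FPKM. It was at 22.3, 18.4 and 16.7 FPKM in CON samples 1, 2 and 3 and at 18.1, 17.2 and 15.8 FPKM in RA samples 1, 2 and 3. The groups overlapped, and the highest value was that of CON sample 1. The log2 fold change was -0.18 (standard error 0.104, adjusted p = 0.335, edgeR), with a 95% interval of 0.749 to 1.04 for the fold. Without CON sample 1 the log2 fold change was -0.06.

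The mineralocorticoid receptor Nr3c2 (ENSRNOG00000034007) had 180 to 221 reads a sample. It was at 2.74, 2.31 and 1.99 FPKM in the CON samples and at 2.30, 2.46 and 2.28 FPKM in the RA samples, and the RA values lay inside the range of CON. The log2 fold change was -0.0064 (standard error 0.145, adjusted p = 0.985, edgeR), with a 95% interval of 0.791 to 1.25 for the fold. Nr3c1 exceeded Nr3c2 by a ratio of 7.97 to 8.40 in the CON samples and 6.93 to 7.84 in the RA samples. These ranges lay close together without overlap, and neither gene alone passed the test. Single genes did not overlap in normalized counts in 31.9% of all genes tested, and no such share was obtained for ratios.

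The estrogen receptor Esr1 (ENSRNOG00000019358) was near the limit of detection. It had 8, 10 and 3 reads in the CON samples and 11, 7 and 11 in the RA samples, and 3 reads is the upper limit that an observed count of 0 allows, corresponding to 0.0789 to 0.102 CPM in these libraries. The log2 fold change was 0.55 (standard error 0.538, adjusted p = 0.578, edgeR), and its 95% interval, 0.624 to 3.45 for the fold, was too wide to show a change of the size seen for Pgr. Its level was at most the 0.64 percentile of tested genes. The other estrogen receptor gene, Esr2, chosen after its values were seen, had 0 to 5 reads a sample and did not pass the filter.

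The values were also expressed as shares of the summed FPKM of 5 steroid receptor genes, Nr3c1, Nr3c2, Pgr, Esr1 and Esr2. Nr3c1 made up 80.8% to 84.0% in CON and 72.2% to 75.8% in RA. The share of Pgr was 5.34%, 8.69% and 9.51% in CON samples 1, 2 and 3 and 14.4%, 13.0% and 16.9% in RA samples 1, 2 and 3. Nr3c2 held 9.61% to 10.3% in CON and 9.65% to 10.9% in RA. Esr1 with Esr2 stayed below 1% together. The sum itself was 20.7 to 26.5 FPKM in CON and 21.9 to 23.9 in RA, so the groups overlapped in the summed RNA of these genes while the Pgr share did not overlap. Shares within a sample add up to the whole, so a higher share of Pgr lowers that of Nr3c1 by construction.

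**Figure D3:**
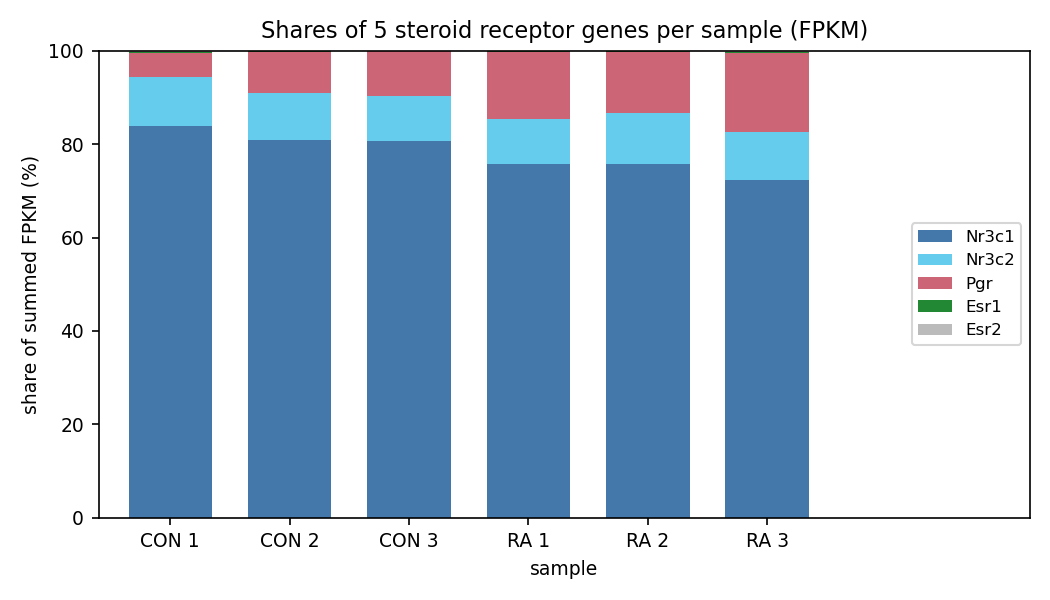
Share of each steroid receptor gene in the summed FPKM of Nr3c1, Nr3c2, Pgr, Esr1 and Esr2 (vertical axis, %), with 1 bar for each sample. The Pgr segment (red) takes 5.34% to 9.51% of the CON bars and 13.0% to 16.9% of the RA bars, and Nr3c1 (blue) takes most of every bar.

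How far the calls for Pgr and Nr0b1 rested on single samples is shown by leaving out each in turn. Pgr was a DEG in 4 of the 6 fits, with a log2 fold change of 0.75 to 0.99. Nr0b1 was a DEG in 1 of the 6, with a log2 fold change of -1.60 to -0.96. Both kept their sign in each of these fits.

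**Figure D4:**
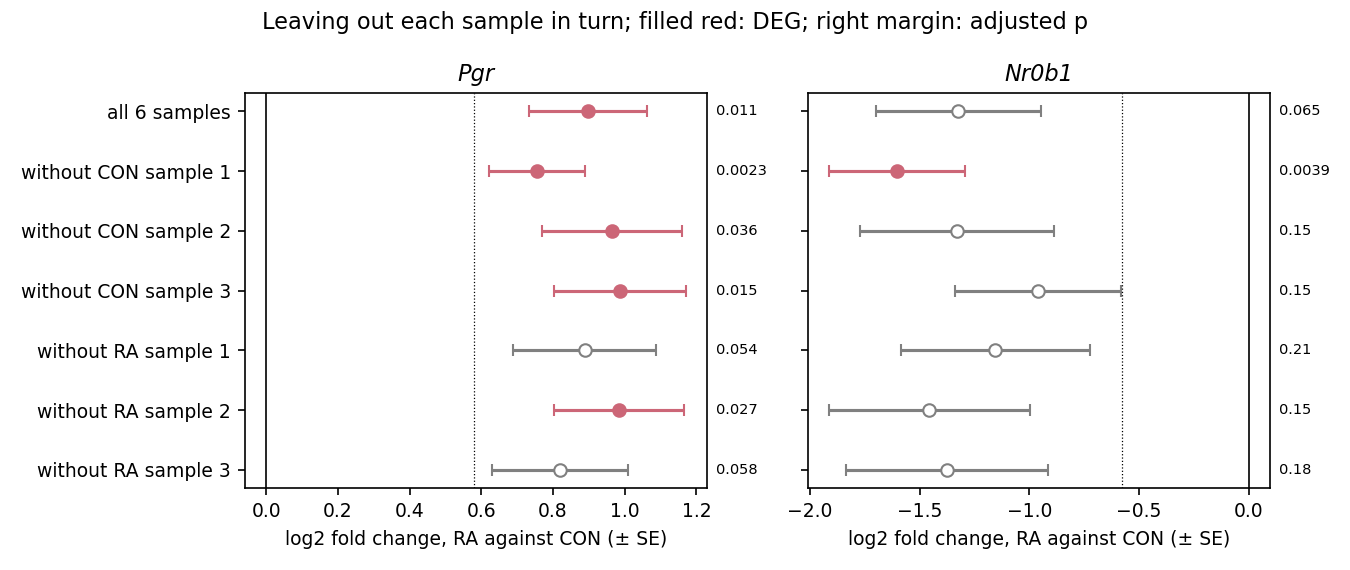
Log2 fold change ± SE (edgeR) of Pgr and Nr0b1 with all 6 samples and with each sample left out; filled red points are DEGs, open grey points are not, and the adjusted p stands at the right of each row. Pgr stays between 0.75 and 0.99 and loses the call without RA sample 1 or 3, while Nr0b1 stays between -1.60 and -0.96 and gains it without CON sample 1.

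The genes that feed and serve these receptors were read from 8 lists. Steroid synthesis and conversion held 4 of the 8 DEGs found in them. Of 17 genes tested in that list, 3 were DEGs higher in RA and 1 was a DEG lower, or 23.5%, beside 4.96% of all genes tested, and the median log2 fold change was 0.21. Leaving out CON sample 2, RA sample 2 or RA sample 3 gave 1 higher and 1 lower, so the count fell to 2 of 17 in 3 of the 6 such fits, and leaving out CON sample 1 or RA sample 1 gave 2 higher and 1 lower. On the adjusted p alone 5 of the 17 passed, beside 9.82% of all genes tested, and 8 had an unadjusted p under 0.05, beside 24%. Hsd11b1 (ENSRNOG00000005861), the enzyme that regenerates active glucocorticoid from its inactive keto form inside the cell, had 1.68, 1.52 and 1.66 FPKM in the CON samples and 9.76, 8.70 and 10.7 FPKM in the RA samples. Every RA sample was far above every CON sample, and the difference was 2.57 on the log2 scale (edgeR, SE 0.102, adjusted p = 8.46e-06). The call held whichever sample was dropped. Hsd11b2, which runs the reverse reaction and was chosen after its values were seen, had 0 to 11 reads a sample and was not tested. The ligand-regenerating enzyme rose while neither glucocorticoid-binding receptor gene was a DEG.

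Cyp19a1 (ENSRNOG00000000196), the aromatase that makes estrogen from androgen, was low throughout, with 3, 4 and 12 reads in CON and 18, 31 and 32 in RA. The groups did not overlap, and the difference was 2.21 on the log2 scale (edgeR, SE 0.476, adjusted p = 0.0219). Dropping 1 sample at a time kept the call in 3 of 6 fits, and the others were those without RA sample 2 (2.08), RA sample 3 (2.10) and CON sample 2 (2.03). Fdxr, which passes electrons to mitochondrial steroid hydroxylases, was higher by 0.77 on the log2 scale (edgeR, adjusted p = 0.0497) but kept the call in 0 of 6 such fits, which gave 0.56 to 0.91, the lowest being that without CON sample 1. Hsd17b11, a dehydrogenase of steroids and lipid droplets, fell from between 51.8 and 60.5 FPKM in CON to between 34.4 and 36 in RA, or -0.67 on the log2 scale, with the call kept in all 6 such fits. The most abundant genes of the list that were not DEGs, Por and Hsd17b12, were at 0.47 and 0.14 on the log2 scale (edgeR, adjusted p = 0.0196 and 0.25), Por falling short on the fold threshold.

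Among 18 tested glucocorticoid and mineralocorticoid targets 1 was a DEG, or 5.56%, a share near the 4.96% of all genes tested, and the median log2 fold change was 0.18. Without CON sample 1, 0 were DEGs by edgeR, and with all samples DESeq2 gave 1. The DEG was Lcn2, which encodes the siderophore-binding protein lipocalin, at 0.60 (edgeR, adjusted p = 0.0488). With 1 sample dropped its call held only without CON sample 2 (0.77), the lowest value being 0.50 without RA sample 3. Mt2A, an abundant target that encodes a metallothionein, had a log2 fold change of 0.23. On the adjusted p alone 4 of the 18 passed, beside 9.82% of all genes tested, and 9 had an unadjusted p under 0.05, beside 24%. Besides Lcn2 these 4 were Sgk1 at 0.51, Dusp1 at 0.51 and Errfi1 at 0.39 (edgeR, adjusted p = 0.00276, 0.00182 and 0.0069), all higher in RA and short of the fold threshold. Of other widely used readouts of the glucocorticoid receptor, Fkbp5 was at 0.21, Tsc22d3 at -0.18 and Per1 at 0.13, and none passed. These 6 genes were chosen after their values were seen.

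Of 16 tested estrogen and progesterone targets, 2 were DEGs, both higher in RA, or 12.5%, beside 4.96% of all genes tested (2.67% higher in RA), with a median of 0.13. The log2 fold changes of the list ran from -1.63, which was not a DEG, to 1.10, and 5 of the 16 were below 0. Leaving out CON sample 1 gave 2 higher and 1 lower. On the adjusted p alone 4 of the 16 passed, and 10 had an unadjusted p under 0.05, beside 9.82% and 24% of all genes tested. Ccnd1, which encodes cyclin D, was at 87.6, 94.6 and 89.8 FPKM in CON and at 187, 177 and 176 FPKM in RA, or 0.98 on the log2 scale (edgeR, adjusted p = 3.77e-05). Igfbp4, which encodes a binding protein for insulin-like growth factors, was at 114 to 145 FPKM in CON and at 279 to 294 FPKM in RA, or 1.10 on the log2 scale (edgeR, adjusted p = 2.37e-04). Both genes answer to many other signals. The most abundant of the rest, the protease gene Ctsd and the transcription factor gene Xbp1, had -0.29 and -0.15 (edgeR, adjusted p = 0.016 and 0.15), Ctsd falling short on the fold threshold.

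**Figure D5:**
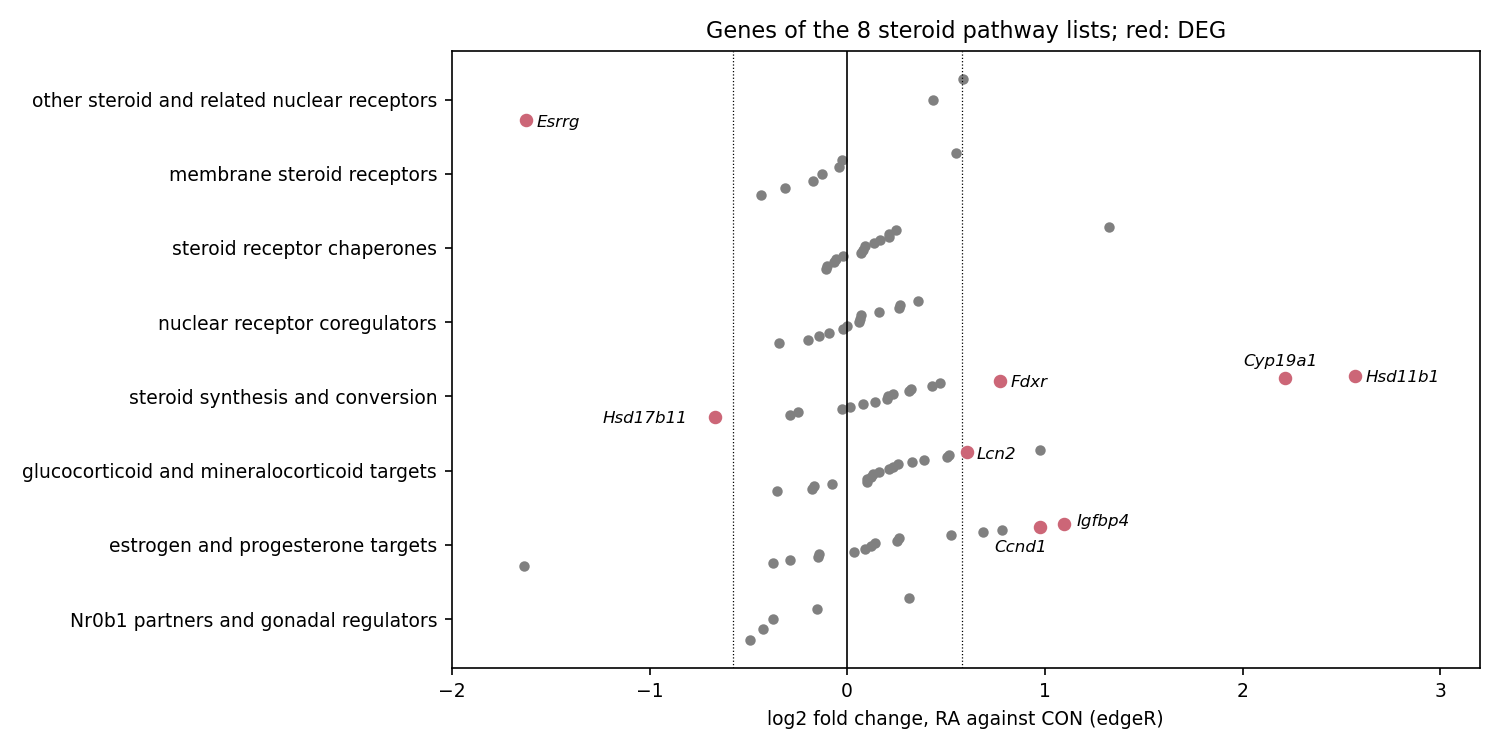
Log2 fold change in RA against CON of each tested gene (points, 1 row for each of the 8 lists); dotted lines mark 0.58 in either direction and red points, named, are DEGs. Hsd11b1 at 2.57 and Cyp19a1 at 2.21 lie farthest to the right, Esrrg at -1.63 is the DEG farthest to the left, and the rows of chaperones, coregulators and membrane receptors hold no DEG.

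Among other receptors, 3 of the 7 genes found were tested and 1 was a DEG, or 33.3%, beside 4.96% of all genes tested. With 1 sample dropped the count was 0 in every fit except that without RA sample 1. Esrrg, an orphan relative of the estrogen receptors, had 32, 22 and 27 reads in CON and 13, 6 and 5 in RA, or -1.63 on the log2 scale (edgeR, SE 0.42, adjusted p = 0.0463). With 1 sample dropped this call held only without RA sample 1 (-2.16) and failed without each CON sample (-1.43, -1.71 and -1.72 without samples 1, 2 and 3) or without RA sample 2 (-1.47) or 3 (-1.36). Esrra, another such relative, was at 0.44 on the log2 scale (edgeR, adjusted p = 0.203). Of 7 tested membrane-bound steroid receptor genes 0 were DEGs by edgeR, beside 4.96% of all genes tested, and 0 by DESeq2 at the same thresholds. At an unadjusted p under 0.05 there were 2, beside 24% of all genes tested. The fit without CON sample 3 called 1 of the 7 higher. The abundant Pgrmc1 and Pgrmc2, named for progesterone binding, had log2 fold changes of -0.03 and -0.04.

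The chaperones that hold the receptors ready for ligand gave 0 DEGs among 14 genes tested, beside 4.96% of all genes tested, with a median log2 fold change of 0.085, and Hsp90ab1 and Hspa8, the most abundant, had 0.14 and 0.21 (edgeR, adjusted p = 0.12 and 0.0385). The coregulators gave 0 DEGs among 13 tested, with a median of 0.06, and the abundant Carm1 had -0.02. Among 5 tested partners of Nr0b1 and gonadal regulators 0 were DEGs, with a median of -0.38, and the most abundant, Sox9 and Inha, had -0.49 and -0.15 (edgeR, adjusted p = 0.00608 and 0.736), Sox9 falling short on the fold threshold. DESeq2 gave 0 DEGs in each of these 3 lists as well, and the genes with an unadjusted p under 0.05 numbered 5, 3 and 1, beside 24% of all genes tested. On the adjusted p alone 1 gene passed in each of the 3 lists, beside 9.82% of all genes tested. Nr5a1, the classical partner of Nr0b1, chosen after its values were seen, had 0 to 2 reads a sample, and markers of steroid-producing cells summed to 0.296 to 0.747 FPKM in CON and 0.774 to 0.831 in RA.

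The genes whose profile over the 6 samples was most like that of a member were sought by Pearson's r of log2 CPM among 11342 genes with a mean of at least 1 FPKM. With so few samples, many genes reach a high r, and r here describes these libraries only. For Pgr they were Samd4a, Bcar1 and Slc8b1 (r of 0.998, 0.996 and 0.995), and 875 genes exceeded 0.9. For Nr0b1 they were the matrix genes Thbs2, Fbn2 and Svep1 (0.996 each), with 283 genes above 0.9. For Nr3c1 they were Cwc27, Zfp91 and Klf3 (0.998, 0.997 and 0.996), and for Nr3c2 Phtf2, Patl1 and Tor1aip2 (0.998, 0.991 and 0.989). For Esr1 the highest were Dixdc1, Utp6 and Rab3ip (0.970, 0.963 and 0.959), with Esr1 itself at 3 to 11 reads. Of these 15 genes, Slc8b1 was the DEG, with a log2 fold change of 0.65.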

How the data were processed

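Poly(A) RNA was sequenced from 3 CON and 3 RA samples, assigned by their labels. The authors deposited for each sample a whole-number read count per gene, without normalization, and an FPKM value, which the count-to-FPKM ratio shows to be scaled by gene length and the sample's summed count. The submitters' processing notes name HISAT2, HTSeq 0.13.5 and Rnor_6.0, while the annotation and strand setting are not given in the sources used here, so reads of overlapping genes cannot be told apart. Counts were analysed with edgeR 4.0.16 in R 4.3.3 (filterByExpr, minimum count 10; TMM; glmQLFit and glmQLFTest; no covariates). Standard errors were derived from the F statistic. Intervals and floors of single samples cover counting error only. Over all tested genes edgeR's biological coefficient of variation was 0.122. The edgeR step was checked on simulated data.

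The members, lists and tests were chosen with earlier results of these data known. Named are all members, every DEG of a list, its 2 most abundant other tested genes and the 3 genes most like each member; others are marked, and 3 genes that this rule names are not reported here. Where a symbol has several identifiers, that with the highest mean count was used. Alternatives were DESeq2 1.42.0, RLE size factors, no filter, a filter of 1 FPKM in 3 samples, limma 3.58.1 on log2(FPKM + 0.1) and log2(FPKM + 1), a replicate block, each sample left out, and other thresholds.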

Additional observations from a re-analysis of the deposited data

How the results depend on the processing

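Pgr was higher in RA under every alternative run and a DEG in 13 of 15, with log2 fold changes of 0.75 to 0.99 when each sample was left out. The alternatives with the adjusted p alone and with an unadjusted p kept the main fit under a looser rule. The estimates and the Pgr call were therefore fixed there. Nr0b1 was lower in each of 14, with -1.60 to -0.96 when each sample was left out, and was a DEG with DESeq2 (-1.33), with the replicate block (-1.27), without CON sample 1 and with an unadjusted p in place of the adjusted one (-1.32). In the limma fit on log2(FPKM + 1), a scale that understates changes of low genes, Nr0b1 was at -0.47 (adjusted p = 0.103 from limma), short of both thresholds. It did not pass the filter of 1 FPKM in 3 samples, nor did Esr1. Nr3c2 changed sign without being called, at 0.014 and 0.0080 in limma fits on log2(FPKM + 0.1) and log2(FPKM + 1), at 0.0015 with the replicate block and between -0.11 and 0.12 with each sample left out. With each sample left out Esr1 was between 0.12 and 0.94 and Nr3c1 between -0.26 and -0.06, and Esr1 was at 0.022 in the limma fit on log2(FPKM + 1). The number of DEGs, 667, was 434 in the limma fit on log2(FPKM + 1), 1319 with the adjusted p alone, 1017 with an unadjusted p, and 480 to 755 with each sample left out. The counts of 1319 and 1017 come from the main fit, with the fold threshold left out or the unadjusted p used. The cause of the other changes was not tested. Whether same-numbered CON and RA samples shared a preparation is not given. The correlations of their deviations from the group means were 0.16, -0.014 and 0.047, against -0.19 to 0.15 for the other pairs. So few values cannot decide it. The block moved the number of DEGs to 684. The retinoid gene Rarb was no DEG with the block (1.46) or in either limma fit. Esrrg was no DEG in the limma fits on log2(FPKM + 0.1) (-0.77) and log2(FPKM + 1) (-0.14). In the latter Cyp19a1 (0.30), Lcn2 (0.57) and Myod1 (0.32) also lost the call, as Fdxr did in the former (0.80). Esr1, Cyp19a1, Esrrg and Nr0b1 had at most 89 reads in any sample.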

Other observations

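Some genes of the steroid lists had 1 sample far from the rest of its group, and were picked here because of these values. Hsp90aa1, an inducible chaperone gene, had 1864 reads in RA sample 1 and 280 to 455 in the other 5 samples, and its log2 fold change was 1.32 (edgeR, adjusted p = 0.287). Gper1, a membrane estrogen receptor gene, had 7 reads in CON sample 1 and 39 and 30 in CON samples 2 and 3. Esrra was at 6.28 FPKM in CON sample 1 and at 10.4 and 11.1 in CON samples 2 and 3. In the same sample Pgr and Nr0b1 had their lowest and Nr3c1 and Nr3c2 their highest CON values.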
